A study of Homo sapiens with 24 samples.

Results

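The genes of glutathione synthesis, recycling and breakdown and 5 glutathione transferases were followed through whole transcriptome sequencing of ovarian cancer cells. The set holds 10 of the 63299 genes in the deposited count table: GCLC, GCLM, GSS, GSR, GGT1, GSTP1, GSTM1, GSTM2, GSTM3 and GSTM4. They were chosen by symbol, through their Ensembl identifiers, as genes linked to platinum resistance, with earlier results of these data known, and the rule itself uses no measured value. A2780 is a platinum-sensitive human ovarian cancer cell line, and A2780cis is its isogenic platinum-resistant derivative, kept resistant by growth in cisplatin for a passage every few passages. How long before harvest that last happened is not given in the sources used here. Each line was given fresh standard medium (untreated) or medium with 1 μM 5-FdU-ECyd, a duplex prodrug that joins the antimetabolites 5-FdU and ECyd, and was harvested after 6 h or 12 h. This gave 8 groups with 3 libraries each, 24 in all. Each line is a single stock, so a difference between the lines may be particular to these cultures. Nothing in the labels says that libraries of a group came from separate passages, so p-values measure only the spread between these samples.

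Glutathione is a tripeptide of glutamate, cysteine and glycine and the main thiol of the cell. Glutamate-cysteine ligase, made of the catalytic subunit GCLC and the modifier subunit GCLM, performs the rate-limiting step, and glutathione synthetase (GSS) adds the glycine. Glutathione reductase (GSR) returns the oxidized form to the reduced one with NADPH, and gamma-glutamyltransferase 1 (GGT1) at the cell surface starts the breakdown of glutathione outside the cell. Glutathione transferases couple glutathione to electrophiles, GSTP1 being the pi-class enzyme and GSTM1 to GSTM4 the mu-class enzymes. Thiols such as glutathione bind platinum drugs, and raised glutathione and its genes are much studied in platinum-resistant ovarian cancer cells.

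The counts of a library summed to between 11077368 and 21901406, where a read can count for several genes or as fractions. Levels are given as CPM, the counts of a gene scaled to a common library size, after TMM normalization, and changes as log2 fold change (log2 FC) ± standard error (SE) from edgeR's quasi-likelihood test. Such values are shares of the counted RNA, so a rise or fall is relative to the other genes. The paper describes ECyd as an inhibitor of RNA polymerase, and a change in total RNA per cell was not tested. Adjusted p-values are Benjamini-Hochberg values over all 20240 genes tested, and at most 0.05 counted as a call. The cells were labelled as ovarian cancer, and their defining markers were found in part. KRT18 reached 602 counts, KRT8 135, EPCAM 28, MSLN 23 and FOLR1 16 in the library with most, and KRT19 and ESR1 at most 6 and 5. KRT7 had no count in any library, and CDH1, PAX8, WT1 and MUC16 had at most 2 counts in each. All 4 endothelial markers and 4 of 5 leukocyte markers had at most 3 counts in every library. The marker sums differed between the lines. The 6 epithelial markers together gave 2.09 to 6.45 CPM in A2780 and 25.0 to 35.8 CPM in A2780cis, mostly from KRT18, while the 5 fibroblast markers gave 49.9 to 86.0 CPM in A2780 and 1.76 to 4.49 CPM in A2780cis. The part of these differences in the values below was not tested.

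GSTM3 could not be compared. It had 1.2 counts in all over the 24 libraries, was above 0 in 3 of them and never exceeded 1 count. At this depth the limit of 3 counts per library corresponds to between 0.137 and 0.271 CPM. The other 9 members passed the filter on low counts and were tested.

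In untreated cells, GCLC, GSR, GGT1 and GSTM1 were higher in A2780cis than in A2780 at both times, and GCLM and GSTM2 were lower. GSTM4 and GSS were higher at 6 h only by the test, and their difference between times was not called. GSTP1 was not called at either time. At 6 h, 6 of the 9 tested members were higher and 2 lower, where 25% of all tested genes were higher and 22.9% lower. At 12 h, 4 were higher and 2 lower, where the shares of all genes were 25.4% and 27.5%. The libraries of the untreated lines did not overlap for 7 of the 9 members at 6 h and for 9 at 12 h. That held for 52.0% and 62.3% of all tested genes, so lack of overlap was common. In bulk RNA, fewer cells of a kind and less RNA per cell cannot be told apart.

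**Figure D1:**
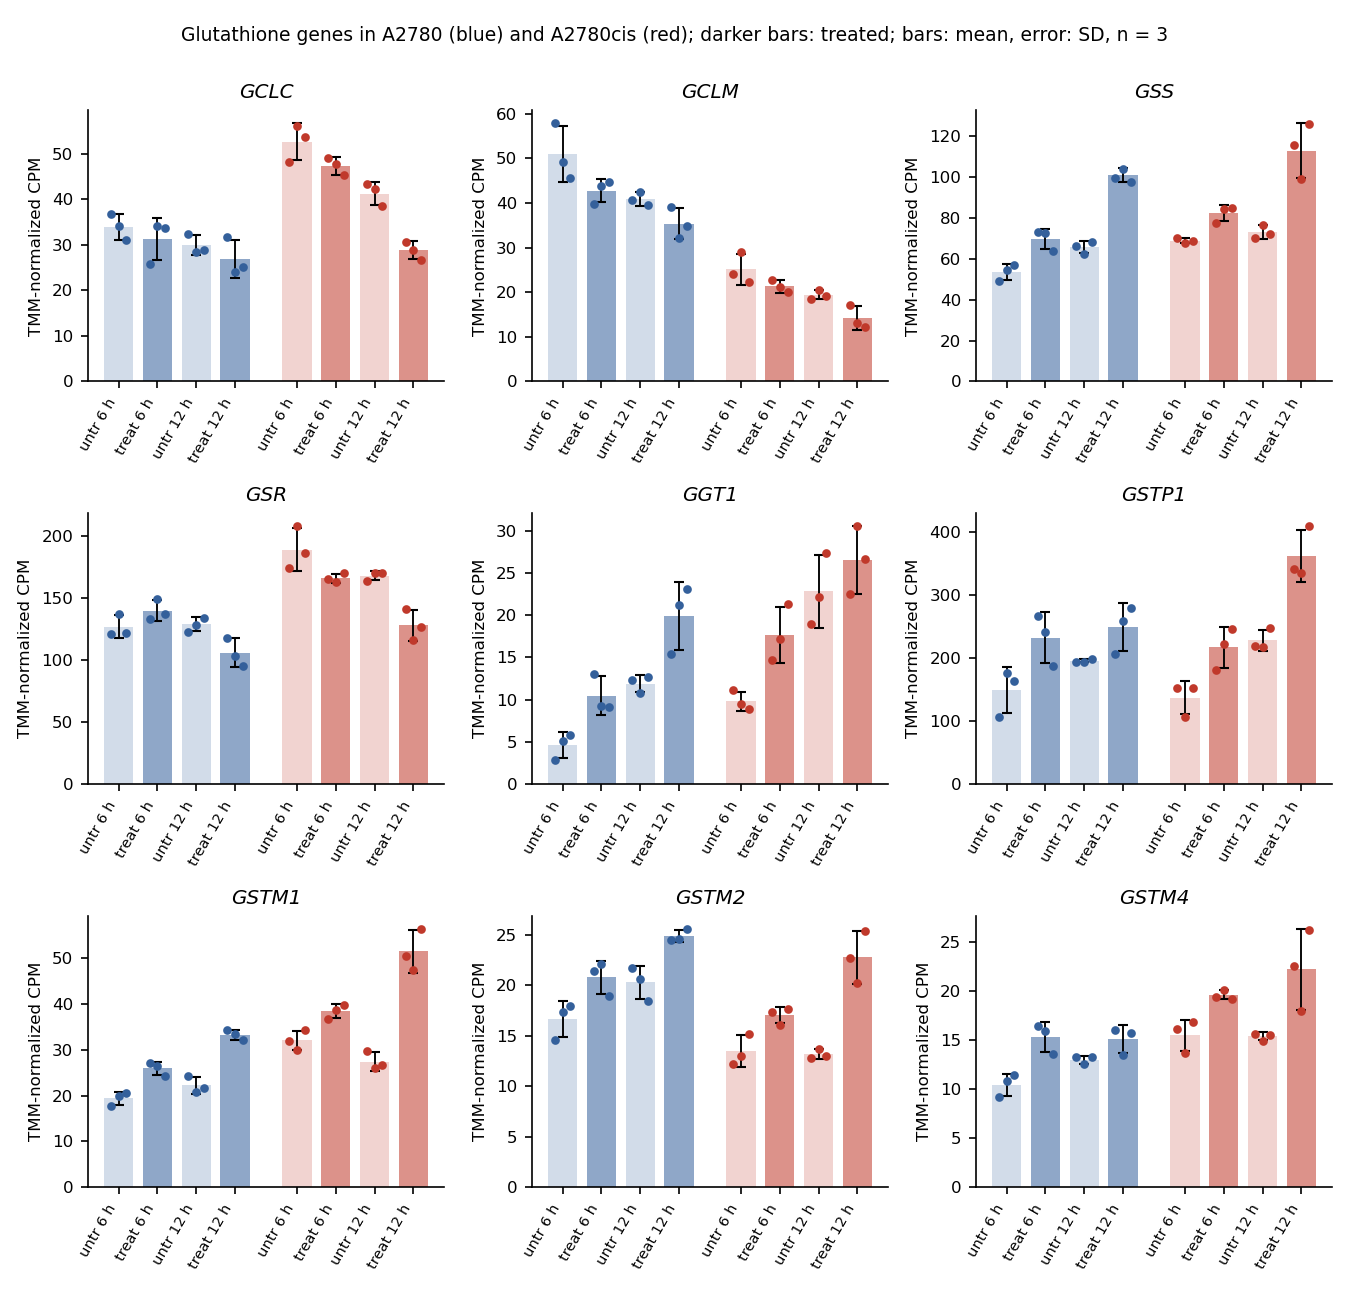
TMM-normalized CPM of the 9 tested members in the 8 groups, with A2780 in blue, A2780cis in red, treated groups in darker bars, points for single libraries, bars for means and error bars for the SD of 3 libraries. GCLM sat between 32.1 and 57.9 CPM in all 12 A2780 libraries and between 12.3 and 29.0 CPM in all 12 A2780cis libraries.

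The 2 subunits of glutamate-cysteine ligase differed between the lines in opposite directions. GCLC (chromosome 6, 53497341 to 53616970 on GRCh38, minus strand) was at 36.8, 34.2 and 31.0 CPM in untreated A2780 at 6 h and at 48.2, 56.1 and 53.8 CPM in untreated A2780cis. At 12 h it was at 32.4, 28.4 and 29.0 CPM in A2780 and at 43.3, 42.2 and 38.5 CPM in A2780cis. Every A2780cis library lay above every A2780 library at both times. GCLC was 1.55-fold higher at 6 h (log2 FC 0.63 ± 0.12, adjusted p = 5.73e-05) and 1.38-fold higher at 12 h (log2 FC 0.46 ± 0.11, adjusted p = 0.00121).

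The modifier subunit gave the largest decrease among the members. GCLM (chromosome 1, 93885199 to 93909456, minus strand) was at 57.9, 49.1 and 45.6 CPM in untreated A2780 at 6 h, and at 24, 29.0 and 22.3 CPM in A2780cis. At 12 h the values were 40.6, 42.5 and 39.6 CPM in A2780 against 18.5, 20.5 and 19.2 CPM in A2780cis. The groups did not overlap at either time. GCLM was 2.03-fold lower at 6 h (log2 FC -1.02 ± 0.12, adjusted p = 1.11e-07) and 2.11-fold lower at 12 h (log2 FC -1.08 ± 0.12, adjusted p = 2.94e-08). Over the alternative settings and fits without a library, the log2 FC stayed between -1.14 and -0.92 at 6 h and between -1.12 and -1.04 at 12 h.

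The ratio of the subunits therefore separated the lines. This ratio of CPM, formed after the values had been seen and not tested, was between 0.636 and 0.809 in the 12 A2780 libraries and between 1.78 and 2.41 in the 12 A2780cis libraries. It was 0.670 ± 0.0305 (SD, n = 3) in untreated A2780 and 2.12 ± 0.257 in untreated A2780cis at 6 h. At 12 h it was 0.734 ± 0.0647 and 2.13 ± 0.182. The ranges given first include the treated libraries, whose ratio after 12 h was 0.759 ± 0.0461 in A2780 and 2.06 ± 0.238 in A2780cis.

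The promoters of these subunits are shown because the genes moved apart between the lines while encoding 1 enzyme. The sequences are the 250 bases before the RefSeq start on GRCh38.p14, read 5′ to 3′ on the strand of the gene, and RefSeq held entries for 8 of the 10 members. The RefSeq start of GCLC lies inside the longer GENCODE gene. Capitals mark the antioxidant response element core, searched on both strands as TGACNNNGC, which 13.3% of all 35116 promoters hold in their 250 bases before and 50 after the start. This element is bound by NRF2 with small MAF proteins, and its letters can overlap with the AP-1 site TGACTCA, found in 4.95% of promoters. A match describes letters only. GCLM holds 1 match, on the opposite strand and without the AP-1 site, and GCLC holds neither in this window.
GCLM, chr1:93909431-93909680, minus strand: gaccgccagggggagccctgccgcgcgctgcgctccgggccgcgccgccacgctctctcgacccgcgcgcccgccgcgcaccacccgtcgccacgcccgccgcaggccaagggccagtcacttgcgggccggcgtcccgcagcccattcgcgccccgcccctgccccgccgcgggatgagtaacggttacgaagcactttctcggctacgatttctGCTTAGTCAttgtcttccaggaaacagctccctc
GCLC, chr6:53545102-53545351, minus strand: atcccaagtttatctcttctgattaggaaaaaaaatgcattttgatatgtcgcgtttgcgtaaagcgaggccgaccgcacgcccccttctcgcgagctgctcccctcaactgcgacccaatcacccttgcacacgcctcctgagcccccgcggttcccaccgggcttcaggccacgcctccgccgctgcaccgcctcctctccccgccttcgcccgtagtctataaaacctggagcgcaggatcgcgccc

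GSS, which completes glutathione, differed less. GSS (chromosome 20, 34928432 to 34956027, minus strand) was at 49.2, 54.5 and 57.0 CPM in untreated A2780 at 6 h and at 70.5, 67.8 and 68.6 CPM in A2780cis, with no overlap. This was a 1.29-fold difference (log2 FC 0.37 ± 0.09, adjusted p = 0.00129). At 12 h the A2780 libraries were at 66.3, 62.4 and 68.3 CPM and the A2780cis libraries at 70.3, 76.7 and 72.2 CPM, which also did not overlap. The log2 FC of 0.15 ± 0.09 had an interval of -0.03 to 0.34 and was not called (adjusted p = 0.14).

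GSR, the reductase, was higher in the resistant line at both times. GSR (chromosome 8, 30678066 to 30727846, minus strand) was at 121, 137 and 122 CPM in untreated A2780 at 6 h, and at 174, 208 and 186 CPM in A2780cis. At 12 h it was at 123, 128 and 134 CPM against 164, 170 and 170 CPM. No A2780cis library fell to the level of an A2780 library. The log2 FC was 0.58 ± 0.09 at 6 h (adjusted p = 6.56e-06) and 0.39 ± 0.09 at 12 h (adjusted p = 0.000738).

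GGT1 gave the largest increase of the set, at a low level. GGT1 (chromosome 22, 24594811 to 24629005, plus strand) was at 2.87, 5.11 and 5.82 CPM in untreated A2780 at 6 h and at 11.1, 9.53 and 8.91 CPM in A2780cis. At 12 h it was at 12.3, 10.8 and 12.7 CPM against 18.9, 22.1 and 27.4 CPM. Again the lines did not overlap. GGT1 was 2.18-fold higher at 6 h (log2 FC 1.12 ± 0.24, adjusted p = 0.000284) and 1.91-fold higher at 12 h (log2 FC 0.93 ± 0.19, adjusted p = 0.000151). Its first A2780 library at 6 h was the lowest of all 24. Of the 75-base windows of its GENCODE 44 canonical transcript, 24.6% also occur in transcripts of 9 other genes, GGT family members and pseudogenes, so its counts may hold reads of these copies.

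**Figure D2:**
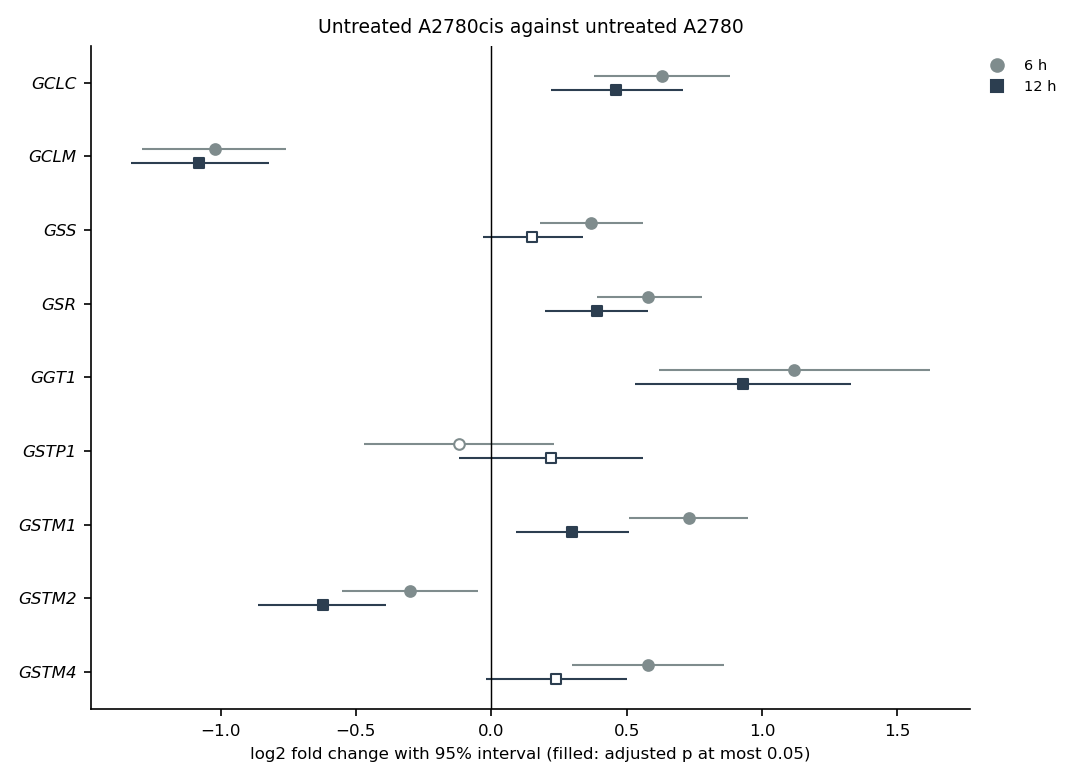
Log2 FC with 95% interval for untreated A2780cis against untreated A2780 at 6 h (grey circles) and 12 h (dark squares), filled where the adjusted p was at most 0.05. GCLM at -1.02 and -1.08 and GGT1 at 1.12 and 0.93 lie farthest from 0, and GSTP1 at -0.12 and 0.22 has intervals that include 0.

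GSTP1 was the most abundant member per length in every group, and its difference between the untreated lines was not called. GSTP1 (chromosome 11, 67583742 to 67586656, plus strand) was at 107, 177 and 163 CPM in untreated A2780 at 6 h, and at 152, 107 and 153 CPM in A2780cis. These groups overlapped, and the log2 FC of -0.12 ± 0.16 had an interval of -0.47 to 0.23 (adjusted p = 0.596). Its sign rested on single libraries: the log2 FC was 0.02 without the second A2780 library and 0.03 without the second A2780cis library. At 12 h GSTP1 was at 194, 194 and 198 CPM in A2780 and at 219, 217 and 247 CPM in A2780cis. There the libraries did not overlap, but the log2 FC of 0.22 ± 0.16 (interval -0.12 to 0.56) was not called (adjusted p = 0.265). With the 2 compared groups fitted alone, the log2 FC was 0.20 and the adjusted p 0.0481.

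The GSTP1 promoter is shown as that of the member with the highest level and with an increase on treatment in both lines. It holds the core TGACNNNGC once, in capitals, 66 bases before the start, and the same letters include the AP-1 site. GSTM1 and the second of the 2 GGT1 promoters hold 1 match each as well, and those of GSTM2, GSTM3 and GSTM4 none.
GSTP1, chr11:67583562-67583811, plus strand: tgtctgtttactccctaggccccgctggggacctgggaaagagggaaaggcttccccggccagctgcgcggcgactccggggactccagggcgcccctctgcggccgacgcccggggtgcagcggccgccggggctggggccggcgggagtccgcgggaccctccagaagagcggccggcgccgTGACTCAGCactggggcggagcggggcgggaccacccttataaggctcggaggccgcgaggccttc

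The mu-class genes GSTM1, GSTM2 and GSTM4 lie side by side on chromosome 1 and share reads. On the plus strand, GSTM4 spans 109656099 to 109665496, GSTM2 109668022 to 109709551 in an annotation that includes a readthrough into GSTM1, and GSTM1 109687814 to 109709039. Their coding sequences have 654 bases each and are identical at 89.9% of positions between GSTM1 and GSTM2, 92.2% between GSTM1 and GSTM4 and 89.1% between GSTM2 and GSTM4. Of the 75-base windows of the canonical transcript, 51.0% of GSTM1, 40.8% of GSTM2 and 9.39% of GSTM4 occur in other genes. Reads from such windows were split or counted more than once, so single mu-class values are uncertain. A lncRNA gene on the opposite strand, ENSG00000260246, also covers 16.0% of the exon length of GSTM1. The stretch from base 75 to base 224 of the coding sequence (GENCODE 44 transcripts) was chosen for its likeness. It holds the longest run of bases that GSTM1 shares unbroken with GSTM2 or GSTM4, 114 bases with GSTM2. It is thus more alike than the whole coding sequences. Capitals mark where a gene differs from GSTM1, at 2 bases in GSTM2 and 3 in GSTM4.
GSTM1: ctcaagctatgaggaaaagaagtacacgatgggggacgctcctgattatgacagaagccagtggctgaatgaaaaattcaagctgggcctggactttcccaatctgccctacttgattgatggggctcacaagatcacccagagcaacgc
GSTM2: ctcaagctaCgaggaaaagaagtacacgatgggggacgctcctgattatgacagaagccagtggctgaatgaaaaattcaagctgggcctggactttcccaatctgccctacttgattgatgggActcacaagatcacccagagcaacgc
GSTM4: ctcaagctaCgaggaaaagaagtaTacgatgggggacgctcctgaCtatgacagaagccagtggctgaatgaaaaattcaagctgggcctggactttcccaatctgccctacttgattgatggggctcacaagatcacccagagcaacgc

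By these counts, GSTM1 was higher and GSTM2 lower in A2780cis. GSTM1 was at 17.7, 19.8 and 20.6 CPM in untreated A2780 at 6 h and at 31.9, 29.9 and 34.2 CPM in A2780cis, which did not overlap (log2 FC 0.73 ± 0.10, adjusted p = 1.26e-06). At 12 h it was at 24.3, 20.7 and 21.7 CPM against 29.7, 25.9 and 26.6 CPM (log2 FC 0.30 ± 0.10, adjusted p = 0.0113). That smaller difference was no longer called without the second A2780 library (log2 FC 0.26, adjusted p = 0.0647), without the first A2780cis library (log2 FC 0.24, adjusted p = 0.0668) or without the filter on low counts (adjusted p = 0.0553).

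GSTM2 went the other way. It was at 14.6, 17.4 and 18.0 CPM in untreated A2780 at 6 h and at 12.2, 13.0 and 15.2 CPM in A2780cis, and the groups overlapped. The log2 FC of -0.30 ± 0.12 (adjusted p = 0.0375) lost its call without the second or the third A2780 library (adjusted p = 0.106 and 0.144), without the first or second A2780cis library (adjusted p = 0.161 and 0.0967) and without the filter (adjusted p = 0.12). At 12 h GSTM2 was at 21.7, 20.6 and 18.5 CPM against 12.8, 13.7 and 13.0 CPM, with no overlap (log2 FC -0.62 ± 0.11, adjusted p = 2.98e-05). GSTM4 was at 9.19 to 11.4 CPM against 13.7 to 16.8 CPM at 6 h (log2 FC 0.58 ± 0.13, adjusted p = 0.000685). At 12 h it was at 12.6 to 13.3 CPM against 14.9 to 15.6 CPM, and the log2 FC of 0.24 ± 0.12 was not called (adjusted p = 0.106).

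Summed over GSTM1, GSTM2 and GSTM4, untreated A2780 was at 46.5 ± 4.37 CPM (SD, n = 3) and A2780cis at 61.0 ± 4.81 CPM at 6 h. At 12 h the sums were 55.5 ± 3.24 and 55.9 ± 1.87 CPM, and the libraries of the lines overlapped. A read counted for more than 1 of these genes enters the sum more than once, and GSTM1 and GSTM2 share 559 exon bases on the same strand. The sum was formed after the values had been seen and was not tested.

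Per kilobase of the canonical transcript (RPKM), untreated A2780 at 6 h had GSTP1 at 201 ± 49.6, GSR at 41.7 ± 2.98, GSS at 28.1 ± 2.10, GSTM1 at 16.6 ± 1.25 and GSTM2 at 14.3 ± 1.54. Below them came GCLM at 10.4 ± 1.29, GCLC at 8.98 ± 0.769, GSTM4 at 7.49 ± 0.809 and GGT1 at 1.75 ± 0.585. GSTM1 and GSTM2, GCLM and GCLC, and GCLC and GSTM4 were neighbours whose ranges of mean ± SD overlapped. In untreated A2780cis at 6 h, GCLC at 13.9 ± 1.08 stood above GCLM at 5.14 ± 0.708 on this scale. GSTP1 stayed first when all exons of a gene were taken as its length (84.4 ± 20.9 RPKM in A2780), but GSTM2 was then at 1.83 ± 0.197, its annotated exons spanning 9116 bases against 1166 in the canonical transcript.

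After 6 h of 5-FdU-ECyd, the transferases, GSS and GGT1 were higher in both lines, and the ligase subunits and GSR were not called. After 12 h GSR was lower in both lines, and GCLC and GCLM were lower in A2780cis. At 6 h, 6 of the 9 tested members were higher in treated A2780 (GSTM1, GSTM2, GSTM4, GSTP1, GSS and GGT1) and 0 lower, where 16% of all genes were higher and 13.4% lower. The 6 called members in A2780cis at 6 h had the same names, with 0 lower, where the shares of all genes were 14.4% and 16.3%. At 12 h, 4 members were higher and 1 lower in A2780, where the shares of all genes were 28.6% and 26.1%. In A2780cis at 12 h, 5 were higher and 3 lower, where the shares were 31% and 28.9%. Scaling by total alone moved the median gene by 0.06 to 0.22 on the log2 scale. The shares higher and lower at 6 h were then 19% and 10.8% in A2780 and 18.7% and 11.7% in A2780cis. At 12 h they were 39.9% and 16.5% in A2780 and 35.7% and 25% in A2780cis. Among members not called at 6 h, GCLM in A2780 and GSR in A2780cis had an unadjusted p under 0.05, and DESeq2's Wald test called 5 members in each line at that time. Treated and untreated libraries did not overlap for 7 of the 9 members in each line at 6 h and for 8 at 12 h. Over all tested genes this share was 41.6% in A2780 and 43.2% in A2780cis at 6 h, and 64.0% and 59.6% at 12 h.

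**Figure D3:**
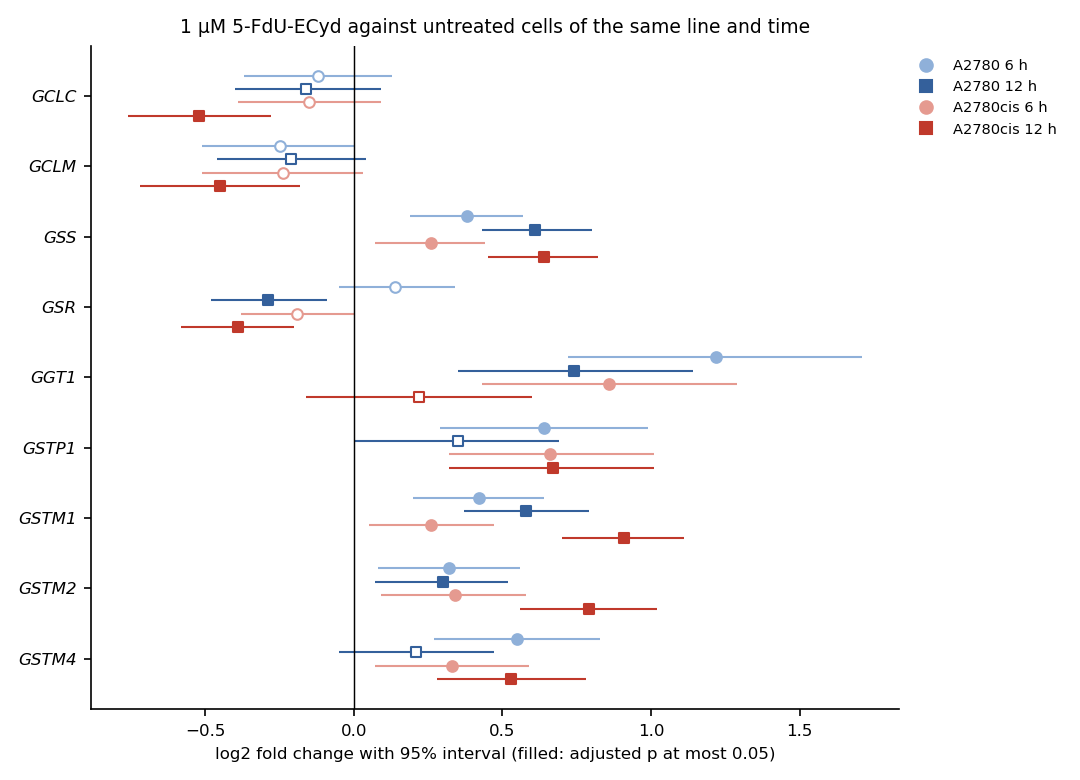
Log2 FC with 95% interval for 1 μM 5-FdU-ECyd against the matching untreated group, for A2780 in blue and A2780cis in red, 6 h as circles and 12 h as squares, filled where the adjusted p was at most 0.05. GSS lies above 0 in all 4 comparisons, at 0.38, 0.61, 0.26 and 0.64, while GCLC and GCLM lie below 0 in all 4 and are filled only for A2780cis at 12 h, at -0.52 and -0.45.

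GCLC and GCLM fell in A2780cis after 12 h. Treated GCLC was at 30.7, 28.9 and 26.7 CPM there, below all untreated libraries (log2 FC -0.52 ± 0.11, adjusted p = 0.000344). Treated GCLM was at 17.2, 13.1 and 12.3 CPM, also below all untreated libraries (log2 FC -0.45 ± 0.13, adjusted p = 0.00342). Both calls held in the alternatives run, with adjusted p from 2.06e-05 to 0.00212 for GCLC and from 0.000179 to 0.0198 for GCLM. At 6 h in A2780cis neither was called, with log2 FC of -0.15 ± 0.11 for GCLC and -0.24 ± 0.13 for GCLM (adjusted p = 0.332 and 0.161).

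In A2780 the subunits were not called at either time. GCLC was at 25.9, 34.2 and 33.8 CPM after 6 h and at 31.7, 24.1 and 25.1 CPM after 12 h of treatment, overlapping the untreated cells (log2 FC -0.12 ± 0.12 and -0.16 ± 0.12, adjusted p = 0.469 and 0.26). Without the first treated library of 12 h the GCLC value became -0.30 with an adjusted p of 0.0371. GCLM was at 39.8, 43.9 and 44.7 CPM after 6 h and at 39.2, 32.1 and 34.9 CPM after 12 h, below all untreated libraries of the same time (log2 FC -0.25 ± 0.12 and -0.21 ± 0.12, adjusted p = 0.119 and 0.139). When libraries were scaled by their total alone, the 12 h values in A2780 changed sign, to 0.06 for GCLC and 0.01 for GCLM.

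GSS rose in both lines at both times. In A2780 it was at 73.0, 72.5 and 64.1 CPM after 6 h and at 99.6, 104 and 97.6 CPM after 12 h, above all untreated libraries of the same time. The log2 FC was 0.38 ± 0.09 (adjusted p = 0.0021) and 0.61 ± 0.09 (adjusted p = 1.37e-06). In A2780cis GSS was at 77.7, 84.7 and 85.0 CPM after 6 h and at 116, 99.1 and 126 CPM after 12 h, which again did not overlap the untreated cells. Here the log2 FC was 0.26 ± 0.09 (adjusted p = 0.0268) and 0.64 ± 0.09 (adjusted p = 6.28e-07). The 6 h call in A2780cis was lost without the second or the third untreated library (adjusted p = 0.0786 and 0.0652), the second or the third treated library (adjusted p = 0.0918 and 0.106) or the filter (adjusted p = 0.082).

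GSR fell after 12 h. Treated A2780 was at 118, 103 and 95 CPM, below all untreated libraries (log2 FC -0.29 ± 0.09, adjusted p = 0.00967). Treated A2780cis was at 141, 116 and 127 CPM, also without overlap (log2 FC -0.39 ± 0.09, adjusted p = 0.000562). The A2780 call was lost without the third treated library (log2 FC -0.22, adjusted p = 0.0715) and with scaling by total alone (log2 FC -0.07, adjusted p = 0.473). At 6 h GSR was at 133, 149 and 137 CPM in A2780 and at 165, 163 and 170 CPM in A2780cis, and neither difference was called (log2 FC 0.14 ± 0.09 and -0.19 ± 0.09, adjusted p = 0.245 and 0.118). The A2780 value of 6 h was called with scaling by total alone (log2 FC 0.21, adjusted p = 0.0403).

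GGT1 rose in A2780 at both times and in A2780cis at 6 h. In A2780 it was at 13.1, 9.26 and 9.18 CPM after 6 h and at 15.4, 21.2 and 23.1 CPM after 12 h, above the untreated libraries (log2 FC 1.22 ± 0.23 and 0.74 ± 0.19, adjusted p = 0.000326 and 0.00162). In A2780cis it was at 14.7, 17.2 and 21.3 CPM after 6 h, above all untreated libraries (log2 FC 0.86 ± 0.20, adjusted p = 0.00203). After 12 h, A2780cis libraries at 22.5, 30.5 and 26.6 CPM overlapped the untreated ones, and the log2 FC of 0.22 ± 0.18 (interval -0.16 to 0.60) was not called (adjusted p = 0.301).

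GSTP1 rose in 3 of the 4 comparisons. Treated A2780 was at 267, 241 and 188 CPM after 6 h, above all untreated libraries (log2 FC 0.64 ± 0.16, adjusted p = 0.00452). Without the first untreated library, the lowest of its group, the log2 FC was 0.45 and the adjusted p 0.052. After 12 h treated A2780 was at 207, 259 and 280 CPM, and the log2 FC of 0.35 ± 0.16 was not called (adjusted p = 0.0717). It was called without the first treated library (log2 FC 0.45, adjusted p = 0.0309), without the filter (adjusted p = 0.0139), with the compared groups alone (adjusted p = 0.0104) and with scaling by total alone (log2 FC 0.57, adjusted p = 0.00551).

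In A2780cis, treated GSTP1 was at 181, 223 and 246 CPM after 6 h (log2 FC 0.66 ± 0.16, adjusted p = 0.00313) and at 341, 334 and 409 CPM after 12 h (log2 FC 0.67 ± 0.16, adjusted p = 0.000928). Both groups lay above the untreated libraries of their time. The 12 h values were the highest of all 24 libraries.

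GSTM1 and GSTM2 rose in all 4 comparisons, most in A2780cis at 12 h. GSTM1 there was at 50.4, 47.3 and 56.3 CPM, 1.87-fold above untreated cells (log2 FC 0.91 ± 0.10, adjusted p = 1.12e-08). GSTM2 was at 22.7, 20.2 and 25.4 CPM, 1.73-fold above (log2 FC 0.79 ± 0.11, adjusted p = 8.97e-07). Neither group overlapped the untreated libraries. In A2780 at 12 h, GSTM1 was at 34.3, 33.4 and 32.0 CPM (log2 FC 0.58 ± 0.10, adjusted p = 1.75e-05) and GSTM2 at 24.5, 24.6 and 25.6 CPM (log2 FC 0.30 ± 0.11, adjusted p = 0.0215). That GSTM2 call was lost without the third untreated library (log2 FC 0.23, adjusted p = 0.121), the third treated library (log2 FC 0.27, adjusted p = 0.0664) or the filter (adjusted p = 0.133), and its log2 FC was 0.52 with scaling by total alone.

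At 6 h the log2 FC of GSTM1 was smaller than at 12 h in both lines, and that of GSTM2 was smaller in A2780cis and 0.32 against 0.30 in A2780. In A2780, GSTM1 was at 27.0, 26.4 and 24.3 CPM (log2 FC 0.42 ± 0.10, adjusted p = 0.00314) and GSTM2 at 21.4, 22.1 and 19.0 CPM (log2 FC 0.32 ± 0.11, adjusted p = 0.0344). The GSTM2 call was lost without the first untreated library (log2 FC 0.23, adjusted p = 0.209), without the first or second treated library (adjusted p = 0.106 and 0.125) and by DESeq2's Wald test (adjusted p = 0.0574). It was also lost with DESeq2's size factors (adjusted p = 0.0564), without the filter (adjusted p = 0.127) and with the compared groups alone (adjusted p = 0.0794). In A2780cis, GSTM1 was at 36.7, 38.7 and 39.7 CPM (log2 FC 0.26 ± 0.10, adjusted p = 0.0438) and GSTM2 at 17.4, 16.1 and 17.7 CPM (log2 FC 0.34 ± 0.12, adjusted p = 0.0281). Both lay above the untreated libraries, but leaving out 1 library could end either call. The GSTM1 call was lost without the first or second untreated library (adjusted p = 0.0963 and 0.163) and without the second or the third treated library (adjusted p = 0.105 and 0.148). The GSTM2 call was lost without the first or second untreated library (adjusted p = 0.13 and 0.0892) and without the first or the third treated library (adjusted p = 0.065 and 0.106). Without the filter neither gene was called (adjusted p = 0.136 for GSTM1 and 0.0827 for GSTM2). With DESeq2's size factors GSTM1 was not called (adjusted p = 0.0511).

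GSTM4 was at 13.6 to 16.4 CPM in treated A2780 at 6 h (log2 FC 0.55 ± 0.13, adjusted p = 0.00271) and at 13.5 to 16.0 CPM at 12 h, where the log2 FC of 0.21 ± 0.12 was not called (adjusted p = 0.153) except with scaling by total alone (0.43, adjusted p = 0.00248). In A2780cis it was at 19.2 to 20.1 CPM at 6 h (log2 FC 0.33 ± 0.12, adjusted p = 0.0463) and at 18.0 to 26.2 CPM at 12 h (log2 FC 0.53 ± 0.12, adjusted p = 0.000448). The 6 h call in A2780cis was lost without the first or second untreated library (adjusted p = 0.0736 and 0.202), without the first, second or the third treated library (adjusted p = 0.0762, 0.127 and 0.0964) and by DESeq2's Wald test (adjusted p = 0.0594). DESeq2's size factors (adjusted p = 0.0528) and leaving out the filter (adjusted p = 0.0905) ended it as well. The sum of GSTM1, GSTM2 and GSTM4 moved the same way, to 62.0 ± 4.51 and 73.2 ± 1.67 CPM in treated A2780 at 6 h and 12 h, and to 75.0 ± 1.59 and 96.3 ± 11.3 CPM in treated A2780cis.

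**Figure D4:**
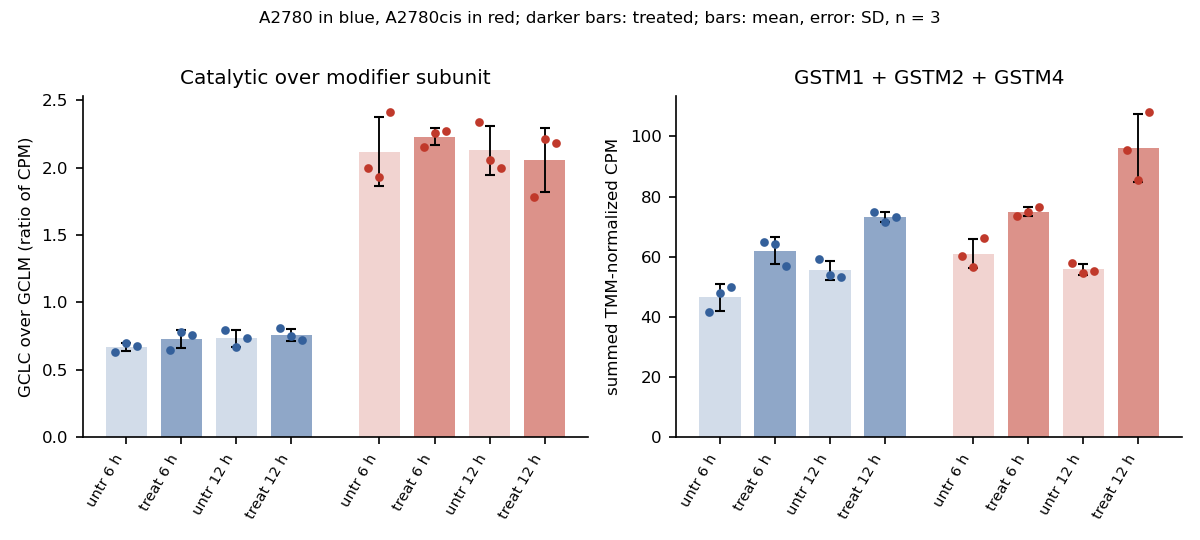
Left, the ratio of GCLC to GCLM CPM, and right, the summed CPM of GSTM1, GSTM2 and GSTM4, by group, with A2780 in blue, A2780cis in red, treated groups darker, points for libraries, bars for means and error bars for the SD of 3 libraries. The ratio stays at or below 0.809 in A2780 and at or above 1.78 in A2780cis, and the sum is highest in treated A2780cis at 12 h, at 96.3 CPM.

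Whether the response differed between the lines was tested as an interaction, A2780cis minus A2780. At 6 h edgeR's test called 0 of the 9 members, and DESeq2 also 0, where 0.692% of all genes were called higher and 2.38% lower. Only GSR had an unadjusted p under 0.05 (difference in log2 FC -0.33 ± 0.13, adjusted p = 0.177). At 12 h GSTM2 was called, with a response larger in A2780cis by 0.49 ± 0.15 on the log2 scale (adjusted p = 0.0203), where 9.7% of all genes were called higher and 14% lower (7.13% and 19.3% with scaling by total alone). The GSTM2 call was lost without the first untreated A2780 library of 12 h (difference 0.43, adjusted p = 0.0637), without the third treated A2780cis library (difference 0.40, adjusted p = 0.0757), with scaling by total alone (difference 0.37, adjusted p = 0.0606) and without the filter (adjusted p = 0.114).
At the same time GSTM1 differed by 0.33 ± 0.14 (adjusted p = 0.085) and GCLC by -0.36 ± 0.16 (adjusted p = 0.106), which were not called. GSTM1 was called without the second treated A2780cis library (difference 0.38, adjusted p = 0.047) and with lncRNA and rRNA genes removed (difference 0.36, adjusted p = 0.0456). GCLC was called with scaling by total alone (difference -0.48, adjusted p = 0.0222). The fall of GCLC and GCLM in A2780cis at 12 h is thus not shown to differ from A2780, and the difference for GCLM was -0.24 ± 0.17 (interval -0.61 to 0.13).

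Whether the response differed between times was tested in the same way, 12 h minus 6 h. In A2780, GSR was called (-0.43 ± 0.13, adjusted p = 0.017), where 10.7% of all genes were called higher and 13% lower (16.3% and 7.07% with scaling by total alone). Its call was lost without the first untreated library of 6 h (-0.40, adjusted p = 0.0505), the second treated library of 6 h (-0.39, adjusted p = 0.0543) or the third treated library of 12 h (-0.35, adjusted p = 0.0668), and with scaling by total alone (-0.28, adjusted p = 0.0647).
In A2780cis, GSTM1 (0.64 ± 0.14, adjusted p = 0.00145), GSTM2 (0.45 ± 0.16, adjusted p = 0.0397) and GSS (0.38 ± 0.12, adjusted p = 0.0269) were called, all with the larger response at 12 h, where 10.3% of all genes were called higher and 13.6% lower. GSTM1 kept its call in every alternative. Without the third treated library of 12 h, GSTM2 was at 0.30 (adjusted p = 0.201) and GSS at 0.23 (adjusted p = 0.189), the lowest values over the libraries left out. Of the 12 libraries in this comparison, GSTM2 also lost its call without the third untreated or any treated library of 6 h, without any untreated library of 12 h or without the first treated library of 12 h (adjusted p = 0.0567 to 0.155). GSS also lost it without the first or the third untreated or the first treated library of 6 h and without the first or the third untreated or the first treated library of 12 h (adjusted p = 0.052 to 0.108). GGT1 at -0.64 ± 0.27 (adjusted p = 0.0871) and GCLC at -0.37 ± 0.16 (adjusted p = 0.0995) were not called. GGT1 was called without the first untreated or the second treated library of 12 h (adjusted p = 0.0451 and 0.0472) and without the filter on low counts (-0.72, adjusted p = 0.0062), and GCLC without the first treated library of 12 h (-0.49, adjusted p = 0.0413).

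Untreated libraries themselves differed between times, so the controls of each time are needed. All untreated libraries of 12 h were also deeper, with 15253875 to 21366058 counts against 11077368 to 14372622 at 6 h. Time in culture cannot be told apart here from other differences between the libraries of the 2 times. From 6 h to 12 h GGT1 rose in both lines, by 1.40 ± 0.23 on the log2 scale in A2780 (adjusted p = 0.000413) and by 1.21 ± 0.20 in A2780cis (adjusted p = 8.83e-05). GCLM fell in both, with -0.32 ± 0.12 (adjusted p = 0.0495) and -0.37 ± 0.13 (adjusted p = 0.0213). GSS rose in A2780 (0.30 ± 0.09, adjusted p = 0.0167), and in A2780cis GSTP1 rose (0.73 ± 0.16, adjusted p = 0.00123) while GCLC fell (-0.35 ± 0.11, adjusted p = 0.0165). This made 2 higher and 1 lower in A2780, where 16.6% of all genes were higher and 10.3% lower, and 2 higher and 2 lower in A2780cis, where the shares were 18% and 21.9%. With scaling by total alone these shares were 19% and 7.44% in A2780 and 23.2% and 7.9% in A2780cis.
Several of these calls rested on single libraries. GCLM in A2780 was at -0.21 (adjusted p = 0.285) without the first library of 6 h and lost its call without any of the other libraries except the third of 6 h (adjusted p = 0.0768 to 0.154). GSS in A2780 lost its call without the first library of 6 h (adjusted p = 0.121) or the third of 12 h (adjusted p = 0.0789). GSTP1 in A2780 was called only without the second library of 6 h (log2 FC 0.54, adjusted p = 0.0382) among the libraries left out, and GSTM2 without the third of 6 h (0.34, adjusted p = 0.0463). In A2780cis, GCLC lost its call without the second or the third library of 6 h or the third of 12 h (adjusted p = 0.0665, 0.0526 and 0.0874), and GCLM without the second of 6 h or the first or the third of 12 h (adjusted p = 0.147, 0.0621 and 0.0663). GSTM1 in A2780cis, at -0.22 ± 0.10 (adjusted p = 0.0716), was called without the first library of 12 h (-0.29, adjusted p = 0.0388). With scaling by total alone, which moved the median gene by 0.17 in A2780cis, GCLC was at -0.18 and GCLM at -0.20 and neither was called.
The untreated difference between the lines was not called to change with time for any member: edgeR and DESeq2 each called 0, and GSTM1 alone had an unadjusted p under 0.05 (-0.43 ± 0.14, adjusted p = 0.358). Of all genes 0% were called higher and 0.0296% lower in that test.

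Across the 24 libraries, which share lines, times and treatment, the genes whose log2 CPM followed GCLM most closely among 12517 others were TMED5 (Pearson r = 0.985), RSBN1 (r = 0.984) and ENSG00000267561 (r = 0.982). For GCLC they were SSR1 (r = 0.969), QTRT2 (r = 0.964) and AIMP1 (r = 0.959), and for GSTP1 NUDT1 (r = 0.974), PHPT1 (r = 0.974) and ELOB (r = 0.969). These values describe likeness over libraries of 8 groups.

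The counts of the 7 lists that follow stand against the shares of all genes called. Between untreated lines these were 25% higher and 22.9% lower at 6 h and 25.4% and 27.5% at 12 h, and after 12 h of treatment 28.6% and 26.1% in A2780 and 31% and 28.9% in A2780cis. Among other glutathione transferases, 11 of 17 listed genes were tested. In untreated A2780cis, 1 was higher and 3 lower than in A2780 at 6 h and 1 higher and 7 lower at 12 h, where the list median log2 FC was -0.37, against -0.01 over all genes. GSTCD, a protein with a glutathione transferase C-terminal domain, was higher (0.57 ± 0.09, adjusted p = 8.95e-06) and GSTO2, an omega-class transferase, lower (-1.90 ± 0.29, adjusted p = 4.93e-06). After 12 h of treatment 4 were higher and 1 lower in A2780 and 8 higher and 1 lower in A2780cis, with list medians of 0.14 and 0.75. GSTK1, the kappa-class enzyme of mitochondria and peroxisomes, rose in A2780cis (0.75 ± 0.11, adjusted p = 2.08e-06) and was at 0.03 ± 0.11 in A2780 (adjusted p = 0.848), and the interaction was called (0.72 ± 0.15, adjusted p = 0.00158).

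Of the glutathione peroxidases and glutaredoxins, 10 of 13 were tested, and 1 was higher and 3 lower in untreated A2780cis at 6 h and 2 higher and 2 lower at 12 h. PRDX6, a peroxiredoxin that uses glutathione, was higher (0.69 ± 0.09, adjusted p = 3.15e-07), and GPX8, a peroxidase of the endoplasmic reticulum, lower (-1.42 ± 0.10, adjusted p = 5.85e-12). After 12 h of treatment 3 were higher and 2 lower in A2780 and 5 higher and 1 lower in A2780cis. GPX1, the cytosolic glutathione peroxidase, rose in both (1.34 ± 0.16 and 1.47 ± 0.16, adjusted p = 1.82e-07 and 3.02e-08).

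For glutathione breakdown, 7 of 14 listed genes were tested, with 3 higher and 3 lower in untreated A2780cis at 6 h and 2 higher and 3 lower at 12 h. CHAC1, which degrades glutathione inside the cell, was lower (-1.96 ± 0.19, adjusted p = 2.25e-09), and its relative CHAC2 was higher (0.82 ± 0.14, adjusted p = 2.96e-05). CHAC1 rose on treatment at 12 h in A2780 (0.57 ± 0.17, adjusted p = 0.00781) and in A2780cis (1.62 ± 0.19, adjusted p = 8.53e-08), and the lines differed in this (1.06 ± 0.26, adjusted p = 0.00453). At 12 h, 3 of the list were higher and 1 lower in treated A2780, and 2 higher and 0 lower in treated A2780cis.

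All 9 genes of cysteine and glutamate supply were tested, and 4 were higher and 3 lower in untreated A2780cis at 6 h and again at 12 h. CTH, which makes cysteine from cystathionine, was higher (1.94 ± 0.11, adjusted p = 4.13e-14), and SLC3A2, the heavy chain of the cystine transporter, lower (-0.90 ± 0.08, adjusted p = 1.33e-10). After 12 h of treatment 2 were higher and 5 lower in A2780 and 1 higher and 5 lower in A2780cis. CBS, which makes cystathionine, fell in both (-1.26 ± 0.15 and -1.49 ± 0.15, adjusted p = 5.68e-08 and 3.03e-09), and GLS2, a glutaminase, rose in both (2.52 ± 0.18 and 1.79 ± 0.18, adjusted p = 9.66e-12 and 5.21e-09).

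The NADPH supply for GSR was covered by 11 tested genes, with 2 higher and 2 lower in untreated A2780cis at 6 h and 4 higher and 2 lower at 12 h. NNT, the mitochondrial transhydrogenase, was higher (1.52 ± 0.09, adjusted p = 1.44e-13). ME1, cytosolic malic enzyme, was at 22.3, 19.6 and 20.3 CPM in untreated A2780 at 6 h. It had 0 counts in the 3 untreated A2780cis libraries of 6 h, so no fold is given. In all 12 A2780cis libraries it had at most 3 counts. After 12 h of treatment 2 were higher and 7 lower in A2780, and 1 higher and 3 lower in A2780cis. IDH1, the cytosolic isocitrate dehydrogenase, fell in both (-0.89 ± 0.11 and -0.82 ± 0.11, adjusted p = 1.15e-07 and 3.66e-07).

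For conjugate export and the glyoxalase pathway, 8 of 9 genes were tested, with 2 higher and 2 lower in untreated A2780cis at 6 h and 1 higher and 3 lower at 12 h. ABCC1, an exporter of glutathione conjugates, was higher (0.66 ± 0.13, adjusted p = 0.000107), and GLO1, which uses glutathione to clear methylglyoxal, lower (-0.70 ± 0.11, adjusted p = 5.75e-06). After 12 h of treatment 2 were higher and 2 lower in A2780 and 3 higher and 3 lower in A2780cis. ABCC1 fell in both (-0.54 ± 0.13 and -1.13 ± 0.13, adjusted p = 0.0011 and 5.82e-08).

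Of the NRF2 regulators and targets, all 15 were tested, with 3 higher and 6 lower in untreated A2780cis at 6 h and 4 higher and 6 lower at 12 h, where the list median was -0.13. SRXN1, sulfiredoxin, was higher (1.05 ± 0.08, adjusted p = 4.44e-11). ME1, which is also on this list, was lower, with at most 3 counts in any A2780cis library. After 12 h of treatment 5 were higher and 3 lower in A2780, where 28.6% of all genes were higher and 26.1% lower, and 6 higher and 2 lower in A2780cis, where the shares were 31% and 28.9%. TXNRD1, thioredoxin reductase, fell in both (-1.02 ± 0.09 and -0.73 ± 0.09, adjusted p = 1.47e-09 and 2.5e-07), and the small MAF gene MAFF rose in both (2.01 ± 0.15 and 2.67 ± 0.16, adjusted p = 1.67e-11 and 2.97e-13). After 6 h of treatment, 0 to 6 genes of a list were higher and 0 to 4 lower. The most were 6 of these 15 genes higher in A2780 and 4 of the 9 genes of cysteine and glutamate supply lower in A2780cis. Of all genes, 16% were higher and 13.4% lower in A2780 at 6 h, and 14.4% and 16.3% in A2780cis. These 7 lists partly share genes, were set with earlier results of these data known, and were described by counts and medians only.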

How the data were processed

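RNA was sequenced with a stranded total RNA kit on a NextSeq500. Per the labels and the study's methods, the authors used trimmomatic, then STAR 2.5.2b against GRCh38.p7, and counted exons of GENCODE genes with featureCounts, giving fractions to reads with several alignments and allowing overlaps. The strand setting is not given in the sources used here, so a gene and its antisense partner cannot be told apart, and the labels name single reads but the methods paired ends. The deposited values are expected counts, not normalized, of which 9.50% to 12.8% per library are not whole.

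Samples were grouped by line, agent and time from the labels. After rounding, the counts went through edgeR 4.0.16 (R 4.3.3): filterByExpr (minimum count 10, minimum total 15), TMM, 1 coefficient per group over all 24 libraries, quasi-likelihood tests (two-sided, 16 residual degrees of freedom) and Benjamini-Hochberg adjustment over 20240 genes. SE was taken from log2 FC and F (its square root), and intervals are 95%. Alternatives were DESeq2 1.42.0 (size factors, Wald test), scaling by total alone, no filter, unrounded counts, compared groups alone, removal of lncRNA and rRNA genes, a replicate block and each library left out. Replicates differed by more than sampling noise. The reads carry no molecular identifiers, so limits cover counting error only. Lengths and coordinates are from GENCODE 44 on GRCh38, which lists 56948 of the 63299 genes.

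The members, the gene lists and the tests were chosen with earlier results of these data known. All 10 members were named, and from each list genes among up to 3 with the smallest p between untreated lines and up to 3 on treatment, at 12 h. The fit was tested on simulated data. Figures were drawn with Python 3.11.15 and matplotlib 3.10.9.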

Additional observations from a re-analysis of the deposited data

Results flagged for a closer look

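In 5 results the response to 5-FdU-ECyd differed between groups by the test of the difference itself. The 12 h response of GSTM2 was larger in A2780cis than in A2780 by 0.49 on the log2 scale. In A2780, the response of GSR was lower at 12 h than at 6 h by -0.43, from 0.14 to -0.29. In A2780cis, the responses of GSTM1, GSTM2 and GSS were larger at 12 h than at 6 h, by 0.64, 0.45 and 0.38. Of these 5 results, the value of GSTM1 kept its call in every alternative, and the others lost it in some of the fits without 1 library. GSTM1 and GSTM2 share reads, so their values are not independent.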

How the results depend on the processing

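Of the counts of called members, 187 stayed within 1.5 times under the alternatives, 22 were smaller and 3 larger. The log2 FC of members were tallied for all line and treatment comparisons, and for interactions and times only where the unadjusted p was under 0.05. Of these, 1009 kept their direction and side of the threshold, 94 lost and 23 gained a call, and 4 changed sign, none of them called. Those were GCLC (0.06) and GCLM (0.01) in A2780 at 12 h with scaling by total alone, and GSTP1 between the untreated lines at 6 h, at 0.02 without the second A2780 library and 0.03 without the second A2780cis library (range -0.31 to 0.03 over the libraries left out). Scaling by total alone called 6 members between times in untreated A2780. Without the filter, 2 were called on treatment in A2780cis at 6 h and 2 between times in untreated A2780cis. With the compared groups alone, 1 was called for the time by treatment interaction in A2780cis and 2 between times in untreated A2780cis. Removing lncRNA and rRNA genes gave 2 for the line by treatment interaction at 12 h. The cause was not tested.

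With 1 library left out, between 2 and 5 members were called on treatment in A2780cis at 6 h, 3 and 7 in A2780 at 12 h, 4 and 6 in A2780 at 6 h and 8 and 8 in A2780cis at 12 h. Between untreated lines it was 7 to 8 at 6 h and 5 to 6 at 12 h. For the interactions it was 0 to 3 (line by treatment at 12 h), 0 to 1 (time by treatment in A2780) and 1 to 4 (in A2780cis), and between times 1 to 4 in untreated A2780 and 2 to 4 in untreated A2780cis.

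The main fit did not pair libraries by replicate number. Deviations from group means of 84 same-numbered pairs correlated between -0.29 and 0.438, with a median of 0.00847, and 23 exceeded 0.1. Differently numbered pairs had a median of -0.00518. In 30 of the 84 pairs, the same-numbered library was the best match among the 3 of the other group. Among the tallied log2 FC a replicate block changed no call, with 8 members called on treatment in A2780cis at 12 h. Scaling by total alone moved the split of all calls by over 10 percentage points in several comparisons, to 70.7% higher from 52.3% on treatment in A2780 at 12 h and to 74.6% from 45.2% between times in untreated A2780cis.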
